A study of Rattus norvegicus with 8 samples.

Results

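CpG-dense stretches of the rat genome that were methylated in normal bladder were followed into urothelial carcinomas (UCs) of the bladder. The rat genome (build rn6) was divided into tiles of 200 bp, and a tile on chromosomes 1 to 20 was called CpG-dense when at least 10 CpGs in it were read in every sample. The level of a tile was the share of cytosine calls among all its cytosine and thymine calls, summed over its CpGs, so that 100% is full methylation. Of 32980 CpG-dense tiles, 1717 (5.21%) had a mean level over 80% in the 3 control bladders and are described here. Another 1365 had a mean of 20% to 80%, and 29898 had a mean under 20%. The 1717 methylated tiles held 10 to 29 CpGs, with a median of 11. Because the control levels chose the tiles, every comparison of these tiles with the controls is given as a description. The calls of the test across all tiles are counted beside their background, and under other settings without it, and support nothing.

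Methylation was measured by reduced representation bisulfite sequencing (RRBS), which reads bisulfite-converted fragments from the CpG-rich part of the genome. The controls, C1 to C3, were bladder samples of male F344/DuCrj rats that drank water with 0 ppm dimethylarsinic acid (DMAV), an arsenic compound, for 104 weeks from the age of 10 weeks. The 5 UCs, BT1 to BT5, came from rats of the same strain, sex and starting age that were given 200 ppm in the same 104-week study. According to the methods, rats were killed when moribund or at the end of week 104. The labels give 2 years for every sample, and the exact time reached by each rat was not given. No histology was done on these tumours, which the authors took as UCs by their size. The labels name the tissue as bladder urothelium, whereas the methods speak of bladder tissue for the controls, and they do not say whether each UC came from another rat or which cells each sample held. In such bulk samples, a lower level in every cell and a complete loss in some cells cannot be told apart.

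Most CpGs of a mammalian genome are methylated, while CpG-dense stretches are mostly CpG islands at gene starts and are kept free of methylation. The minority of CpG islands that are methylated in normal tissue includes the promoters of germline genes, which are kept silent by methylation in somatic cells, and imprinted genes, at which 1 parental copy is methylated. Tumours are known both for gains of methylation at CpG islands and for losses of methylation outside them.

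Gene names below rest on the gene starts that could be placed on the files' CpGs. RefSeq promoter windows of build GRCr8 (250 bases before to 50 after a start) were placed by the spacing of their CpGs alone, and 8608 of 33469 windows, of 7835 genes, found a place. A distance below is to the nearest placed start, so that another gene may be closer. A tile was counted as over a window when at least 30 bp overlapped, so that it may lie mostly outside the window. A methylated tile overlapped 21 of the 6743 placed windows that lay over a CpG-dense tile (0.311%), belonging to 19 genes and covering 20 tiles. The 250 bases before the start are printed for 4 of these windows, with each CpG in capitals, to show how dense the CpGs of a normally methylated promoter can be. Ddx4 is an RNA helicase of germ cells, Spaca1 a protein of the sperm acrosome, and Btbd18 a nuclear protein of spermatogenic cells. The sequence of Plekhg4 spans the edge between an unmethylated and a methylated tile.
Ddx4: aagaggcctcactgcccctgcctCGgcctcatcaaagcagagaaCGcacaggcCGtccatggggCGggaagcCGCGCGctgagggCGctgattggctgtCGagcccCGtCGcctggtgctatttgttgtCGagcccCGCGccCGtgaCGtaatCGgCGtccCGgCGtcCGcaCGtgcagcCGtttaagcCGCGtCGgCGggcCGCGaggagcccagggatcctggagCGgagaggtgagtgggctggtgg
Spaca1: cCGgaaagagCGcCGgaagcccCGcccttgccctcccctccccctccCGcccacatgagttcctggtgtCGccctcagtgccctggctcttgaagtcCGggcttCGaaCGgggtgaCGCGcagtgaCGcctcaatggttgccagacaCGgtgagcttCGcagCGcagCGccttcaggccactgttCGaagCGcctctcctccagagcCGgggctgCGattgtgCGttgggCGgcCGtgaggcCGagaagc
Btbd18: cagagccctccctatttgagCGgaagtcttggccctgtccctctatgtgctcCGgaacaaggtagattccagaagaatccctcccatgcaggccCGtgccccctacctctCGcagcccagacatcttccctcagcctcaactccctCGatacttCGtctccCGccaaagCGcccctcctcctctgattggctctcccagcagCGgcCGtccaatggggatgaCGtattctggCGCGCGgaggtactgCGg
Plekhg4: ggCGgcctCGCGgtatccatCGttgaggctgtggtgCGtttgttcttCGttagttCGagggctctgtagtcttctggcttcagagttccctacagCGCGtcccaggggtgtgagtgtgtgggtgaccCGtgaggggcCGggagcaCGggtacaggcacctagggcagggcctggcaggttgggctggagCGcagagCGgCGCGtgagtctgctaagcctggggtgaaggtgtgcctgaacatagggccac
These 250 bases held 30 CpGs at Ddx4, 24 at Spaca1, 15 at Btbd18 and 16 at Plekhg4. The hexamer CACGTG, searched as a palindrome, was found in 4 of the 21 windows (19.05%), in 10.1% of the placed windows over CpG-dense tiles and in 6.42% of all windows. GGCGGGA, searched on both strands, was found in 4 of the 21 (19.05%), in 27.6% and in 10.5%. The site CCGG of the enzyme MspI was in 20 of the 21 windows and the site TCGA of TaqI in 12. A match describes the letters of a window and does not show binding.

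The samples had 51434938 to 73836223 calls in all, with a median of 14 to 18 reads on a CpG and no CpG under 3 reads. The methylated tiles received 517446 to 735678 of these calls per sample, and 1702 of the 1717 had at least 50 calls in every sample. For the tiles named here, the 95% Wilson interval of a single level spanned 0.966 to 22.5 points, with a median of 6.45, and covers counting error only, since the CpGs of a read are not independent. Of 16 urothelial marker genes, 4 had a placed start with a level. Of these, 3 were under 20% in the controls, and the window of Krt8, a keratin of the urothelium that was not a methylated tile, had 52.8%, 54.7% and 53.8% in C1 to C3 and 7.65%, 5.02%, 27.7%, 4% and 7.52% in BT1 to BT5. The CpG-dense tile that overlaps the end of this window had 55.1%, 66.3% and 59.7% in the controls and 47.2%, 19.8%, 55.04%, 77.2% and 74.1% in the UCs, so that BT4 and BT5 were above the controls there. Of 12 smooth muscle and stromal, 10 immune and 5 endothelial markers, a level was had for 1, 0 and 1. The part of the cell mixture in the results below was not tested.

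CpG-dense tiles that were methylated in normal bladder mostly stayed methylated in the UCs. The mean of the 5 UCs was over 80% in 1583 of the 1717 tiles (92.2%), and every UC was over 80% in 1430 (83.3%). Each of the 5 UCs was within 10 points of the control mean in 1353 tiles (78.8%), which are called retained. A level at least 20 points below the control mean is called a loss. At least 1 UC had lost 5.88% of the tiles, of which 16 (0.932% of all) were lost in every UC and 85 in 1 to 4 UCs. The other 263 tiles lay between these limits. Only 22 tiles had a UC mean under 50%, and 2 had a mean under 20%.

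The median level of the tiles was 91.4%, 91.4% and 91.3% in C1 to C3. It was 94.4% in BT1, 94.4% in BT2, 92.3% in BT3, 92.6% in BT4 and 93.1% in BT5, so that every UC was above every control in the median tile. The lower end went the other way, with a 5th percentile of 81.1% to 81.7% in the controls and of 70.9% to 77.0% in the UCs. The share of tiles over 95% was 16.4% to 17.9% in the controls, 43.3% and 43.9% in BT1 and BT2, 25.5% in BT3, and 31.9% and 33.5% in BT4 and BT5. The UCs thus had more tiles over 95%. The choice of tiles by the control mean cut off the low end of the controls, so nothing is read from the longer low tail of the UCs here. Losses are counted below also in a control left out of the choice. Between samples of a group, the SD of a tile had a median of 1.49 points in the controls (n = 3) and 2.29 points in the UCs (n = 5).

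**Figure D1:**
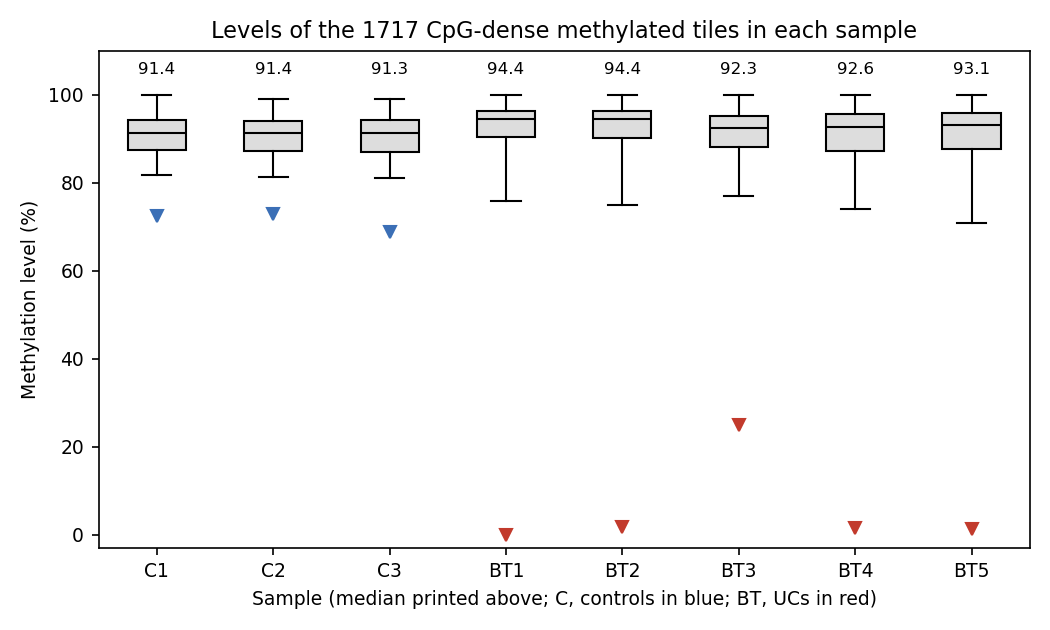
Methylation level (%) of the 1717 CpG-dense methylated tiles in each control (C1 to C3, blue) and UC (BT1 to BT5, red). Boxes show the quartiles and the median, whiskers run from the 5th percentile to the highest tile, and triangles mark the lowest tile, at 68.9% to 72.8% in the controls and 0% to 24.9% in the UCs. The choice of tiles limits how low a control can be.

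The difference of group means, UC minus control, had a median of 1.15 points over the 1717 tiles (quartiles -0.897 and 3.30, range -76.2 to 13.7), beside 0.341 points over all 258144 tiles with at least 3 CpGs. The rise in the median tile was larger where the controls were lower. It was 4.24 points in the 256 tiles with a control mean of 80% to 85%, 1.88 points in the 431 of 85% to 90%, 1.23 points in the 755 of 90% to 95%, and 0.246 points in the 275 above 95%, where little room is left. Losses fell in the same order, from 12.9% of the tiles at 80% to 85% to 9.51%, 3.58% and 0 of 275, a count that allows a share of up to 1.09%.

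The calls of the test across all tiles (adjusted p under 0.05 and a difference over 10 points) rest on the control levels that chose the tiles, and a tile that starts over 80% has room to fall and little room to rise by 10 points, so nothing is read from them. By this count, 61 of the 1717 tiles were called lower in the UCs (3.55%), where the share called lower was 7.15% of all tiles and 0.949% of the CpG-dense tiles. A further 33 were called higher (1.92%), beside 9.29% of all tiles and 5.32% of the CpG-dense tiles. Every UC was below every control in 124 tiles (7.22%), beside 10.0% of all tiles and 3.33% of the CpG-dense tiles. Every UC was above every control in 309 tiles (18.0%), beside 15.4% and 15.3%. With no minimum difference, 89 tiles were called lower and 231 higher, so which count is larger depends on this setting. With BT1 and BT2 merged to 1 sample, and likewise BT4 and BT5, 33 tiles were called lower and 16 higher. Without C1, C2 and C3, 37, 32 and 29 tiles were called lower. Without BT3, 55 tiles were called higher. For these other settings no share over all tiles is given, so nothing is read from their counts.

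To set the losses beside the spread of normal bladders, tiles were chosen on 2 controls only and the control left out was counted like a UC. C1 had a level at least 20 points below the other controls in 1 of 1712 tiles, C2 in 0 of 1722, which allows up to 0.174%, and C3 in 2 of 1728. With the same tiles, BT3 had 35 to 43 losses and the other UCs 54 to 61. The median difference of the control left out was -0.117 to 0.0352 points, and that of the UCs 0.607 to 2.11 points. A control that had no part in the choice thus had 0 to 2 losses where a UC had 35 or more.

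**Figure D2:**
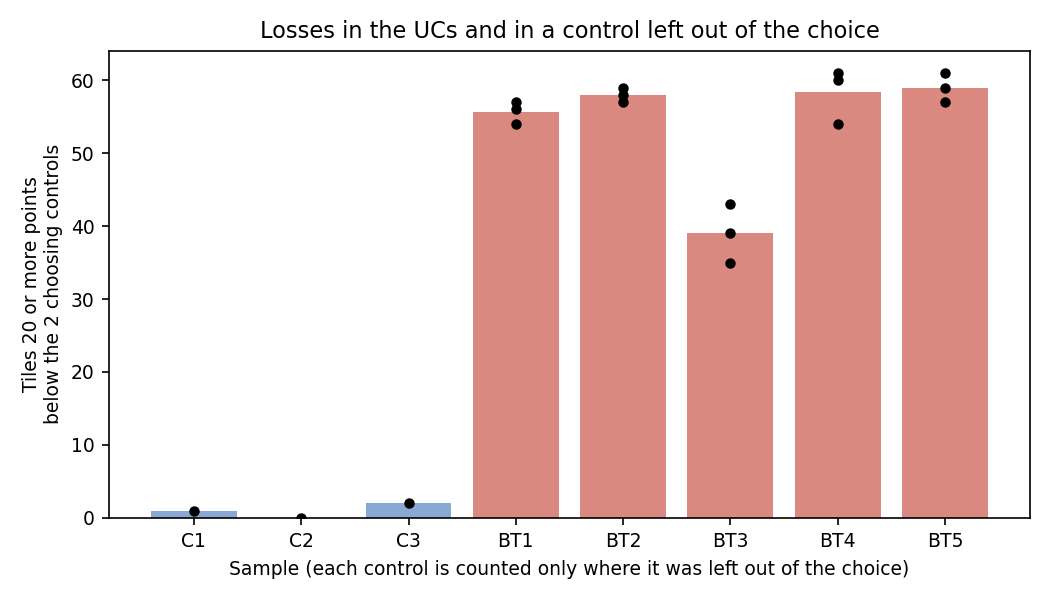
Number of CpG-dense tiles at least 20 points below the mean of the 2 controls that chose them. Points are the 3 choices of 2 controls for each UC (red, bar at their mean) and the single choice for the control left out (blue), where the counts were 1, 0 and 2 against 35 to 61 in the UCs.

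Relative to the mean of all 3 controls, BT1 had lost 55 tiles, BT2 55, BT3 38, BT4 57 and BT5 56. Losses were often partial. The lost tiles had a median level of 48.8% in BT1, 46.3% in BT2, 52.1% in BT3, 55.8% in BT4 and 51.7% in BT5, from control means with medians of 85.6% to 87.4%. Levels under 20% were reached by 9 tiles in BT1, 8 in BT2, 7 in BT4 and 10 in BT5, whereas the lowest tile of BT3 was at 24.9%. BT3 thus had fewer losses than each other UC and none that went below 20%.

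The UCs shared their losses in pairs. Of the 55 losses of BT1 and the 55 of BT2, 46 were the same tiles (83.6% of each), and BT4 and BT5 shared 48 (84.2% and 85.7%). For the other pairs of UCs, 20 to 32 losses were shared. Over all 1717 tiles, the root mean square difference was 2.99 points between BT1 and BT2 and 2.94 points between BT4 and BT5, as small as the 2.98 to 3.15 points between controls, and 7.64 to 8.24 points between the other UCs. After the 16 tiles lost in every UC, the commonest patterns were a loss in BT4 and BT5 only (15 tiles), in BT1 and BT2 only (13), in these 4 UCs but not in BT3 (10), and in BT3 only (9). Whether the members of a pair came from the same rat was not given in the sources used here.

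The 16 tiles lost in every UC had a median level of 84.3%, 86.5% and 85.9% in C1 to C3. The median was 29.5% in BT1, 23.1% in BT2, 53.4% in BT3, 24.7% in BT4 and 22.3% in BT5. BT3 was the highest UC in 14 of the 16 tiles. In 13 of the 16, every CpG of the tile was on average at least 20 points lower in the UCs.

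The largest fall was that of chr6:135410601-135410800, which lay 1.61 kb downstream of the start of Ankrd9, an ankyrin repeat protein. Its levels were 81.3%, 85.7% and 82.2% in C1 to C3 and 3.78%, 2.84%, 24.9%, 1.55% and 1.32% in BT1 to BT5, on 392 to 1209 calls. All 17 CpGs fell, from control means of 53.9% to 92.3% to UC means of 3.64% to 9.03%. The other CpGs within 1 kb fell with them, from 76.4% to 9.59%. This was an almost complete loss in 4 UCs and a large loss in BT3.

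The tile with the next largest fall, chr15:24344001-24344200, had no placed start within 100 kb. It went from 82.2%, 86.0% and 81.5% in the controls to 6.30%, 3.82%, 26.6%, 8.67% and 1.25% in BT1 to BT5. A tile 21.8 kb downstream of the start of Tnfrsf21, a death receptor, at chr9:20599201-20599400 had 91.7%, 94.7% and 95.5% in the controls and 24.7%, 24.1%, 63.0%, 7.69% and 7.81% in the UCs. Here BT4 and BT5 were lowest, BT1 and BT2 next and BT3 highest. The tile chr9:38048001-38048200, also far from a placed start, showed another order. It had 85.8%, 88.1% and 89.3% in the controls, 3.62% and 3.95% in BT1 and BT2, 45.1% in BT3, and 31.9% and 38.2% in BT4 and BT5. In the tile chr4:178350001-178350200, BT1 and BT2 were again lowest at 16.2% and 14.1%, with 42.9%, 44.7% and 35.8% in BT3 to BT5 and 92.2% to 96.1% in the controls.

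The tile chr17:8430401-8430600 lay 1.16 kb upstream of the start of Tgfbi, an extracellular matrix protein induced by TGF-beta. Its levels were 85.2%, 85.6% and 82.8% in the controls and 23.2%, 21.4%, 40%, 15.5% and 10.9% in BT1 to BT5. Unlike at Ankrd9, the other CpGs within 1 kb were only partly methylated in the controls, at 36.9%, and had 29.4% in the UCs, so that the loss was in the tile and much less around it. The tile chr7:11436201-11436400 lay 8.49 kb downstream of the start of Zbtb7a, a transcriptional repressor. It fell from 82.5% to 84.8% in the controls to 13.8%, 12.6%, 49.3%, 23.8% and 16.02% in BT1 to BT5. The tile chr7:117250201-117250400, far from a placed start, had 86.6%, 87.9% and 88.2% in the controls and 39.3%, 34.7%, 59.5%, 6.90% and 6.17% in the UCs, with BT4 and BT5 nearly free of methylation.

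The other 8 tiles lost in every UC had differences (UC mean minus control mean) of -56.3 to -25.6 points. They included a tile 8.38 kb downstream of the start of Sik1, a salt-inducible kinase, with a difference of -43.3 points, a tile 23.6 kb downstream of that of Sh2b3, an adaptor of cytokine signalling, with -39.1 points, and a tile 17.04 kb downstream of that of Bag3, a co-chaperone, with -25.6 points. At the Bag3 tile the 5 UCs were close to each other, at 57.9% to 65%, and 6 of its 11 CpGs fell. At the Sik1 tile the coverage relative to the sample total was lower in the UCs (log2 ratio -0.49), and the part of this in the level was not tested.

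**Figure D3:**
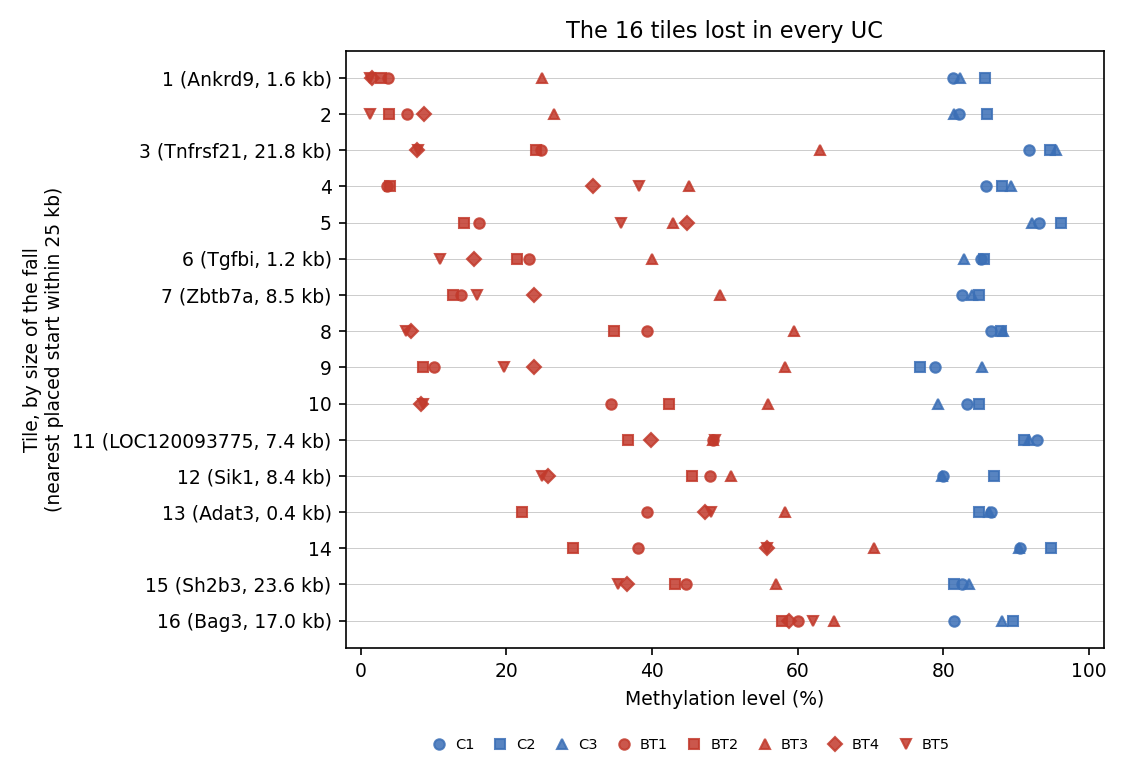
Methylation level (%) of the 16 tiles lost in every UC, ordered by the fall of the UC mean, in each control (blue) and each UC (red), with the nearest placed gene start where it lay within 25 kb. Controls lie between 76.8% and 96.1% and BT3 (red upward triangle) is the highest UC in 14 tiles.

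A loss near a gene start could be followed CpG by CpG at Adat3, which encodes a subunit of a tRNA adenosine deaminase. The longest run of adjacent methylated tiles, 5 tiles at chr7:11977601-11978600, began near this start and ran into the gene. The 3 tiles farthest from the start were retained, at 88.8% to 97.9% in the controls and 90.2% to 98.4% in the UCs. The tile chr7:11978201-11978400, with 23 CpGs, fell from 86.6%, 84.8% and 86.3% in the controls to 39.3%, 22.2%, 58.3%, 47.3% and 48.1% in BT1 to BT5. The tile next to it on the side of the start fell from 79.7%, 83.4% and 85.04% to 51.3%, 39.1%, 69.9%, 57.0% and 55.2%. Of the 78 CpGs within 1.1 kb of the start, 31 were at least 20 points lower in the mean of the 5 UCs, and these were the 31 consecutive CpGs from 127 to 435 bp past the start. In BT1 and BT2 lower CpGs also lay nearer the start. The CpG at 97 bp had 54.7% in BT1 and 42.9% in BT2 against 83.9% to 93.0% in the controls, that at 22 bp had 90% and 94.6%, and that at 15 bp had 55.1% and 45.9% against 81.6% to 87.6%.

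Losses restricted to some UCs could be as deep as those shared by all. Tile chr11:32852401-32852600 had 84.2%, 92.4% and 89.7% in the controls and 75.8%, 70.4% and 80.1% in BT3 to BT5, but 0% of 162 calls in BT1 and 1.66% in BT2. The 95% Wilson interval of this 0% reaches 2.32% and treats the calls as independent, which the CpGs of a read are not. Tile chr7:125379001-125379200 was also lost in BT1 and BT2 only, at 52.5% and 50.4% against 89.1% to 92.5% in the other UCs, and 4 of its 10 CpGs fell on the mean of all UCs. In BT4 and BT5 only, chr10:104365401-104365600 had 49.2% and 50.9% against 89.0% to 92.2% in the other UCs. The tile chr9:41391601-41391800 had 57.4% and 51.1% in BT4 and BT5, where BT1 to BT3, at 93.4% to 94.5%, were above all controls (82.4% to 89.2%). In BT3 only, chr8:61275001-61275200 had 50% against 93.4% to 96.0%, and chr6:24277801-24278000 had 44.6% against 70.04% to 87.3%. Falls of some UCs and rises of others thus met in the same tile.

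Further tiles, chosen after their values were seen, split the UCs in other ways. A tile 7.32 kb downstream of the start of Txnrd1, a thioredoxin reductase, at chr7:26977001-26977200 had 93.5% to 95.1% in the controls, 6.01% in BT1, 8.49% in BT2 and 31.4% in BT3, but 97.1% and 97.0% in BT4 and BT5. A tile 6.82 kb downstream of that of Sstr2, a somatostatin receptor, lay at chr10:102143001-102143200. It had 96.4% and 95.4% in BT1 and BT2, but 35.3%, 31.9% and 31.1% in BT3 to BT5. BT3 was low in both tiles, whereas BT1 and BT2 changed sides with BT4 and BT5. The tile chr1:78962801-78963000, 5.37 kb downstream of the start of Ppp5c, a protein phosphatase, had 19.4% and 22.2% in BT1 and BT2, 89.1% in BT3, and 59.4% and 60.9% in BT4 and BT5, against 93.9% to 95.2% in the controls. BT3 was thus on the side of BT1 and BT2, of BT4 and BT5, or of the controls, depending on the tile.

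Gains were small by comparison, since a tile over 80% can rise by 20 points at most. Among tiles with at least 50 calls in every sample and no overlap of the groups, the largest was that of chr5:49439201-49439400, 0.12 kb upstream of the start of Spaca1, with 80.7%, 79.6% and 80.6% in the controls and 95.3%, 94.3%, 89.0%, 94.9% and 96.5% in BT1 to BT5. The tile chr9:94231601-94231800 rose from 80.9% to 84.0% in the controls to 94.5% to 98.0% in the UCs. The tile chr10:13186801-13187000, 0.56 kb downstream of the start of Prss41, a serine protease of the testis, had 76.8%, 82.3% and 85% in the controls and 97.0%, 96.1%, 86.0%, 97.9% and 96.0% in the UCs. A tile chosen after its values were seen, chr6:131838001-131838200, had the same difference of 13.7 points but overlapping groups, with 75.6% to 82.9% in the controls, 95.5%, 99.03%, 95.5% and 98.2% in BT1, BT2, BT4 and BT5, and 81.4% in BT3.

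The retained tiles closest to the controls were flat across all 8 samples. At chr7:125465201-125465400 the levels were 96.1% to 98.0% in the controls and 97.1% to 97.9% in the UCs, and at chr18:374601-374800 they were 97.0% to 97.8% and 96.6% to 97.2%. The tile chr2:236460401-236460600 had 94.9% to 96.8% and 95.05% to 96.5%. The tile chr16:22013601-22013800 had 91.8% to 92.9% and 91.5% to 92.4% on 2417 to 12203 calls. It was 1 of 2 of the 1717 tiles with over 10 times the median calls of the CpG-dense tiles. At the threshold of 80%, the tiles just inside, chr1:81868801-81869000 and chr10:105687601-105687800, had control means of 80.01% and 80.02% and UC means of 87.3% and 85.5%. The tiles just outside, chr3:60022601-60022800 and chr9:82686201-82686400, had control means of 79.92% and 79.98% and UC means of 79.0% and 81.9%.

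Of the 20 tiles over a promoter window, 11 were retained, beside 78.8% of all the methylated tiles, and 1 was lost in a UC, beside 5.88%. The UC mean was above the control mean in 16, beside 65.8%, and every UC was over 80% in 17, beside 83.3%. The median difference was 4.40 points (range -13.8 to 13.7), beside 1.15 points. In 8 of the 20 the UCs lay above the controls without overlap, beside 18.0% of all the methylated tiles, and in 1 they lay below without overlap, beside 7.22%. That tile, chr12:6886601-6886800 over the window of LOC134481325, had 87.7%, 89.4% and 82.7% in the controls and 68.8%, 68.8%, 67.2%, 78% and 81.5% in BT1 to BT5, on 50 to 237 calls. Of the 22 germline genes of the list used here, Ddx4 and Slc25a31 (the ADP/ATP carrier of germ cells) had a tile over their window. Further genes with such a tile are described after their values were seen, namely Spaca1, Btbd18, Rbm44 (an RNA-binding protein of germ cells) and Tuba3a (a testis tubulin). The others were Gcshl1, Rpl39l1, Hdgfl1, Rnf149l1, Plekhg4, Fgf6 and loci known only by a number.

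The tile over the Ddx4 window, chr2:44504201-44504400, had 88.3%, 86.7% and 86.2% in the controls and 93.1%, 93.5%, 92.2%, 90.8% and 94.98% in BT1 to BT5. That of Slc25a31, chr2:127538601-127538800, overlapped only the end of its window, in which 1 CpG was read in every sample, so the window itself had no level. This tile had 83.6%, 86.8% and 82.7% in the controls and 92.9%, 91.2%, 90.4%, 94.4% and 97.5% in the UCs. In both the Ddx4 and the Slc25a31 tile, every UC was above every control. The second tile of Spaca1, chr5:49439001-49439200, had 80.5% to 87.5% and 89.6% to 96.6%, again without overlap. For Btbd18, at chr3:72061001-72061200, the controls spread from 79.4% to 88.7% and the UCs from 87.1% to 94.9%, so that the groups overlapped. At Rbm44, chr9:98279001-98279200, BT3 had 81.6%, below the controls at 82.4% to 88.5%, and the other UCs had 94.2% to 97.0%. Tuba3a stayed at 93.7% to 96.2% in the controls and 94.4% to 97.3% in the UCs.

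Near the start of another germline gene, methylation was not kept in every UC. A tile 0.51 kb downstream of the start of Dazl, an RNA-binding protein that germ cells need, at chr9:12634401-12634600 had 86.1%, 84.1% and 87.2% in the controls and 90.5% and 89.8% in BT1 and BT2, but 53.2%, 74.7% and 68.7% in BT3 to BT5. Only BT3 passed the limit of a loss there. The tile lay outside the promoter window of Dazl, in which 0 CpGs were read in every sample. Outside the germline genes, the tile over the window of Fgf6, a fibroblast growth factor of muscle, had 78.8% to 83.2% in the controls, 88.8%, 94.5% and 82.7% in BT1 to BT3, and 60.2% and 64.7% in BT4 and BT5. The Fgf6 tile was the 1 promoter tile with a loss, which passed the limit in BT4. It overlapped only the end of the window, and the CpGs of the window itself went the other way, from 65.5%, 64.04% and 72.1% in the controls to 87.5%, 87.1%, 76.9%, 82.6% and 76.1% in BT1 to BT5.

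**Figure D4:**
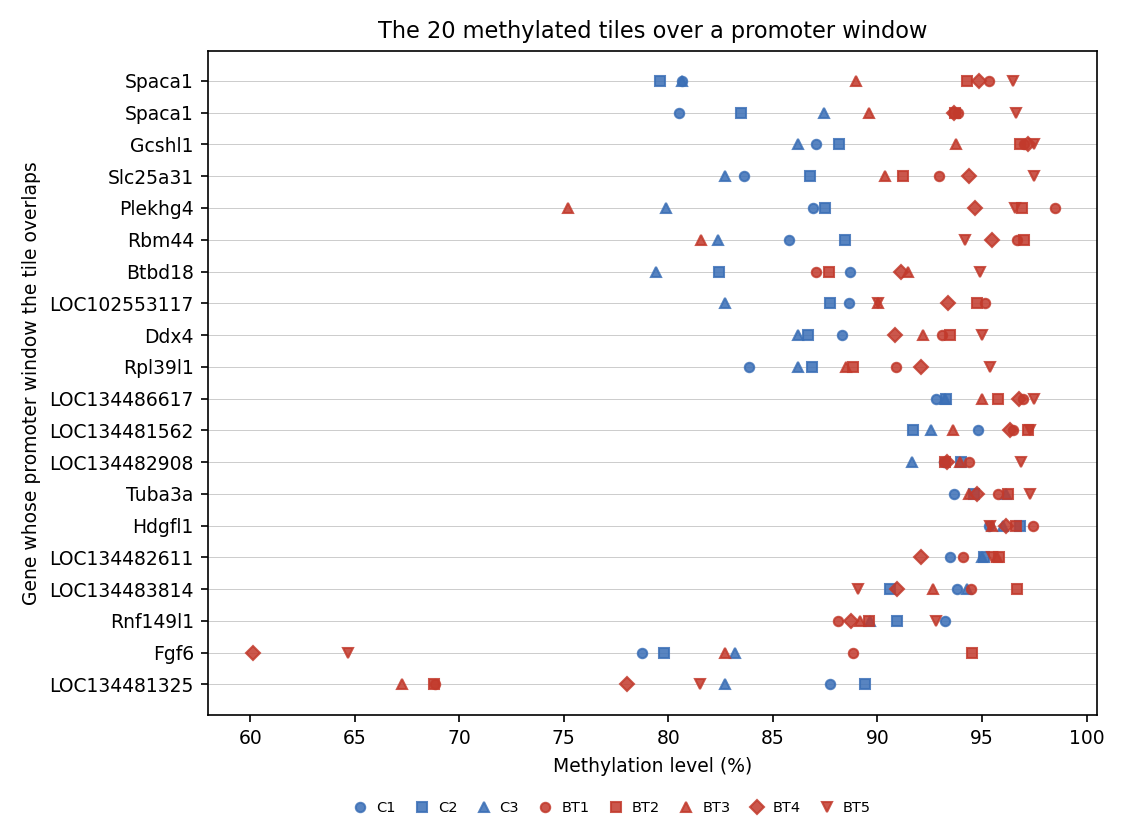
Methylation level (%), on an axis that starts at 58%, of the 20 methylated tiles that overlap a placed RefSeq promoter window, by gene, in each control (blue) and each UC (red), ordered by the difference of group means. UCs lie to the right of all controls in 8 tiles, and BT4 and BT5 lie below them at Fgf6.

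Plekhg4 had placed windows for 2 starts, and the methylated tile chr19:37330401-37330600 lay over the downstream one. It had 86.9%, 87.5% and 79.9% in the controls and 98.5%, 96.9%, 75.2%, 94.6% and 96.6% in BT1 to BT5. The next tile upstream, chr19:37330201-37330400, was unmethylated in the controls at 13.9%, 6.71% and 7.49% and had 50.7%, 37.3%, 16.9%, 53.8% and 53.1% in the UCs (difference 33.0 points, adjusted p = 0.0205, quasi-binomial test with limma-moderated dispersion over all tiles). The one before it, chr19:37330001-37330200, had 2.93% to 4.47% in the controls and 26.9%, 22.8%, 7.07%, 51.8% and 42.6% in the UCs (difference 26.6 points, adjusted p = 0.0179). These 2 tiles are described as neighbours of the methylated tile, outside the rule for naming tiles, so nothing further is read from their p-values. Every UC was above every control in both, beside 15.3% of all CpG-dense tiles, of which 5.32% were called higher. The test counts 5 separate UCs, although BT1 and BT2, and BT4 and BT5, were as alike as controls. The printed Plekhg4 sequence covers this edge, where 22 of the 49 CpGs within 1.1 kb were on average at least 20 points higher in the UCs. They lay between -513 and -155 bp from the downstream start, and in the methylated tile beyond them BT1, BT2, BT4 and BT5 were higher than the controls and BT3 was lower. BT3 had 33.3%, 52.9% and 25% at the CpGs at -123, -113 and -105 bp, against 50% to 96.4% in the controls. The sample with the fewest reads had only 8, 17 and 8 reads there. At the other CpGs of this tile BT3 had 76.2% to 100%. Past the start, 1 CpG fell, at 652 bp, with 40.4% to 62.5% in these 4 UCs, 97.7% in BT3 and 78.1% to 88.5% in the controls.

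**Figure D5:**
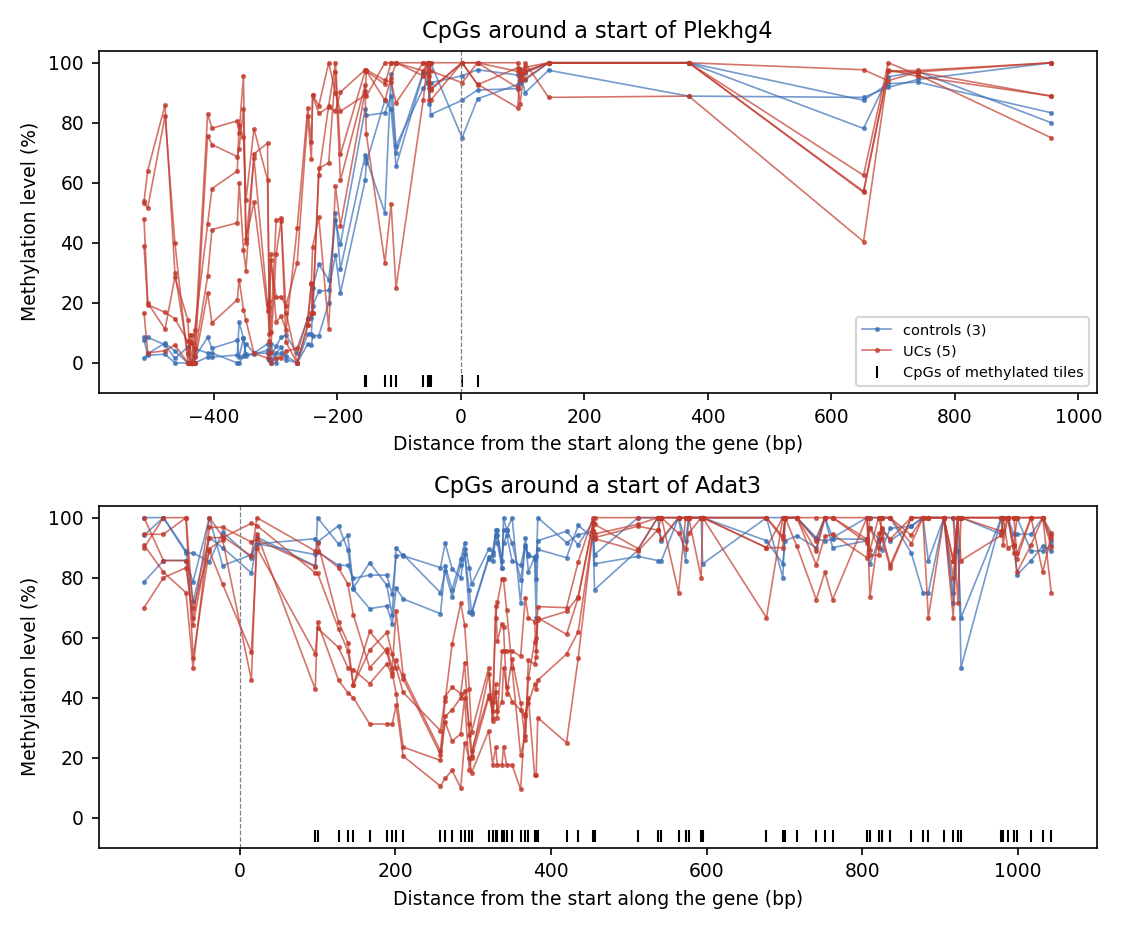
Methylation level (%) of single CpGs against the distance (bp) from the downstream start of Plekhg4 (top) and from the start of Adat3 (bottom), in the 3 controls (blue) and 5 UCs (red), with ticks under the CpGs of methylated tiles. At Plekhg4 the mean of the UCs is at least 20 points higher at 22 CpGs between -513 and -155 bp and lower at 652 bp, and at Adat3 it is at least 20 points lower at the CpGs from 127 to 435 bp past the start.

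Gene lists chosen with earlier results of these data known gave few methylated tiles. Of 22 germline genes, 6 could be placed, and 3, Dazl, Ddx4 and Slc25a31, had a methylated tile within 1 kb. Among the other germline genes that were placed, the windows of Tdrd1 and Tex101, which did not hold a CpG-dense tile, had control means of 90.1% and 85.9% and UC means of 94.1% and 74.996%, and that of Piwil1 had 55.9% and 73.5%. Of 20 imprinted genes, 9 were placed and had a level, which was 20% to 80% in the controls for 5 genes (Igf2r, Gnas, Sgce, Peg10 and Mest, at 31.5% to 44.3%) and over 80% for 0. All 112 zinc finger genes with a level were under 20% in the controls. A methylated tile was found for 0 of the placed genes among 34 clustered protocadherins, 15 bladder cancer and tumour suppressor genes and 11 genes of arsenic metabolism and DNA methylation. Only 4, 5 and 6 genes of these lists were placed, and 1, 4 and 4 had a CpG-dense tile over their window. A methylated tile lay over 0.311% of all placed windows with a CpG-dense tile, so nothing is read from these counts of 0.

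The methylated tiles lay farther from a placed gene start than the unmethylated CpG-dense tiles. A placed start was within 1 kb of 33 of the 1717 tiles (1.92%), of 7.11% of the partly methylated CpG-dense tiles and of 53.0% of the unmethylated ones. The median distance to a placed start was 64.6 kb for the methylated tiles and 0.671 kb for the unmethylated ones. Among the methylated tiles, the median distance was 22.7 kb for those lost in every UC, 36.6 kb for those lost in 1 to 4 UCs and 68.7 kb for those retained. The distance to the nearest unmethylated CpG-dense tile went in the same order, with medians of 18.5 kb, 23.2 kb and 40.8 kb.

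Losses shared by every UC often reached beyond the tile. CpGs within 1 kb outside the tile could be read for 14 of the 16 tiles lost in every UC, and in 10 of these 14 they were at least 20 points lower in the UCs, with a median difference of -51.2 points. The same was seen for 16 of 73 tiles lost in 1 to 4 UCs and 19 of 1112 retained tiles, where the median difference was 1.37 points. Over 1417 tiles, the difference of a tile and that of its flanks had a Pearson correlation of 0.583 and a Spearman correlation of 0.416, given as a description, since neighbouring CpGs share reads and fragments. In the controls, the flanks of the tiles lost in every UC had a median of 73.6%, and those of retained tiles 89.2%. A partly methylated tile lay within 1 kb of 8 of the 12 tiles lost in every UC that had a neighbour (66.7%). The share was 53.0% for tiles lost in 1 to 4 UCs, 47.3% for the tiles between the limits and 28.8% for the retained ones. These classes also differed in the control mean, with medians of 85.2%, 87.4%, 85.1% and 92.3%, and its part was not tested.

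Within a lost tile, the fall as read at single CpGs was often uneven. In the UCs that had lost it, every CpG was at least 20 points lower in 25 of the lost tiles (24.8%) and more than 50% of the CpGs were in 68, and the median tile had 66.7% of its CpGs lower. The lower CpGs formed 1 unbroken block in 42 tiles and more than 1 block in 59. Of the 42, the block was the whole tile in 25 and a part of it in 17. Every CpG read in all samples was counted, down to 3 reads in a sample. The part of counting error in these falls and blocks was not tested. As a description, the correlation of the difference between group means with the number of CpGs was -0.00666 (Pearson) and 0.0364 (Spearman), and with the log2 ratio of relative coverage in UCs over controls it was -0.0692 and -0.0753, over 1717 tiles. With depth, as the log10 of the tile's lowest number of calls, it was -0.0192 and 0.0135.

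Tiles of lower CpG density with a control mean over the same 80% lost methylation more often as they stood. Of 88740 tiles with 3 to 5 CpGs and a control mean over 80%, 15.5% were lost in at least 1 UC and 50.05% were retained, and of 15407 tiles with 6 to 9 CpGs, 8.25% and 67.4%. The CpG-dense tiles had 5.88% and 78.8%. Among these, the shares were 5.74% and 78.8% for 10 to 12 CpGs and 6.25% and 80.9% for 13 to 16. The 37 tiles with 17 or more CpGs went the other way, with 8.11% and 59.5%. The classes of 3 to 5, 6 to 9 and at least 10 CpGs also differed in the control mean, with medians of 89.6%, 90.4% and 91.4%. They differed in depth too, with medians of the tile's lowest call number of 43, 103 and 199. Among tiles with at least 150 calls in every sample, 7.64% of 1204 tiles with 3 to 5 CpGs, 7.73% of 3687 with 6 to 9 and 6.46% of 1239 CpG-dense tiles were lost in at least 1 UC, and 69.3%, 72.3% and 79.1% were retained. Depth still differed among these tiles, with medians of 169, 187 and 234, and so did the control mean, with medians of 89.4%, 90.3% and 91.3%. The part of depth or of the control level in the shares was not tested.

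The tiles were spread over all 20 chromosomes, with 39 on chromosome 15 to 186 on chromosome 1. Chromosome 12 had the largest share of its CpG-dense tiles among them (9.45%) and chromosome 15 the smallest (4.05%). The share lost in at least 1 UC was highest on chromosome 7 (19 of 159, 11.9%) and chromosome 9 (8 of 71, 11.3%) and lowest on chromosome 2 (2 of 95, 2.11%). In a stretch of chromosome 7 from 11 to 13 Mb, chosen after the values were seen, 6 of 34 tiles were lost in at least 1 UC and 3 in every UC, among them the tiles near Adat3 and Zbtb7a. Most tiles stood alone. Only 171 lay in the 78 runs of adjacent tiles, and a lost tile was in 5 of these runs, in none of which all tiles were lost.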

How the data were processed

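DNA methylation was measured by RRBS in 3 controls and 5 UCs. According to the methods, DNA was cut with TaqI and MspI, and the authors used RRBSMAP for alignment to rn6, keeping reads with a unique place and 1 read per barcode and position. The deposited files give, for every CpG (strands merged), a C count and a C-plus-T count, used here. The authors also deposited an expected count corrected for base variants, used as an alternative, and a fraction with its interval, not used. The submitters' processing notes name HOMER.

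Calls were summed over 200-bp tiles. Tiles with at least 3 CpGs in every sample (258144) were tested with a quasi-binomial model with a limma-moderated dispersion (limma 3.58.1, R 4.3.3) and Benjamini-Hochberg adjustment over all of them, and the test was tested on simulated data. Replicates are samples, and p-values set the difference against their spread, moderated over all tiles tested. They count each UC as separate, although BT1 and BT2, and BT4 and BT5, were as alike as controls. A genome of rn6 was not used here. Promoter windows were placed where the gaps between their CpGs matched those of the files, with at least 8 CpGs matched and a lead of 3 CpGs over any second place. Of the placements, 95.1% fell on the chromosome RefSeq gives.

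The tiles and gene lists were chosen with earlier results of these data known. Among tiles with at least 50 calls in every sample, those named are the 8 largest falls and 3 largest rises without overlap of the groups, the 4 retained tiles closest to the controls, 2 tiles for each of 3 patterns of loss, and those next to the threshold. The other tiles lost in every UC, those over promoters and those described as chosen after their values were seen lie outside this rule. So do the 2 unmethylated tiles upstream of that of Plekhg4. Python 3.11.15 with numpy 2.4.6, pandas 2.3.3, scipy 1.17.1 and matplotlib 3.10.9 was used.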

Additional observations from a re-analysis of the deposited data

Results flagged for a closer look

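Among the 5 UCs, 8 of 56 measures had a UC farther from the others than Dixon's 95% limit allows, and in all 8 it was BT3. Chance gives about 1 in 20 for independent samples, but BT1 and BT2, and BT4 and BT5, were as alike as controls, so the count is not read against it. BT3 had 38 losses against 55 to 57 in the other UCs. In the tile near Ankrd9 it kept 24.9% against 1.32% to 3.78%, and in a tile on chromosome 8, which was named for its loss in BT3 only, it had 50% against 93.4% to 96.0%. In the tile near Prss41 it had 86% against 96.0% to 97.9%. In tiles over promoter windows it had 93.8% against 96.8% to 97.5% at Gcshl1 (97.5% against 96.6% to 98.5% in the window itself), 93.6% against 96.4% to 97.3% at LOC134481562, 75.2% against 94.6% to 98.5% at Plekhg4, and 81.6% against 94.2% to 97.0% at Rbm44. BT3 also had the lowest number of calls, 51434938. The part of depth or of the cell mixture in these values was not tested.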

How the results depend on the processing

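The number of methylated tiles was 1030 with a control mean over 90%, 119 with at least 15 CpGs and 642 with only the CpGs that every sample read 10 times or more, and 1712 to 1728 with a control left out. With these CpGs, 30 tiles were called lower and 12 higher, 9 were lost in every UC and 511 retained, of the fewer tiles. With a difference over 20 points, 34 were called lower and 0 higher, a rise that no tile over 80% can reach. With no minimum difference, 89 were called lower and 231 higher. No share over all tiles is given beside the calls of this section, so nothing is read from them. Leaving out 1 sample gave 29 to 71 tiles called lower, 22 to 55 called higher, 14 to 26 lost in every UC (26 without BT3), 1337 to 1385 retained and a median difference of 0.930 to 1.29 points. With BT1 and BT2, and BT4 and BT5, merged, 33 were called lower and 16 higher, and the cause was not tested. With limits of 30 and 20 points, 9 tiles were lost in every UC. With the replicate number as a block, 25 were called lower and 3 higher, but the numbers do not pair the samples: over the 1717 tiles, the deviations of same-numbered samples had correlations of 0.0282, -0.0101 and 0.0909. Of 83 recomputed summary values, 63 stayed within 1.5 times the reported count or, for the median difference, within the spread between UCs, and for named tiles the difference moved by less than the SD of the UCs in 291 of 297 recomputations and changed sign in 0 of the called tiles. The depth limits single levels to intervals of up to 22.5 points.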
